A study of Mus musculus with 64 samples.

Results

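The 10 genes described here carry out and restrain the breakdown of triglyceride in fat, inside the adipocyte and in the capillaries that feed it: Pnpla2, Pnpla3, Lipe, Mgll, Abhd5, G0s2, Plin1, Lpl, Gpihbp1 and Angptl4. They were chosen by name for their place in this pathway, and each symbol matched 1 of the 52636 Ensembl gene IDs in the count table. All 10 were among the 20249 genes with enough counts to be tested.

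RNA of male mice was sequenced from 2 whole fat depots, brown adipose tissue (BAT) and the white epididymal depot (eWAT), in 64 libraries. FANKO mice, the fat-specific Nampt knockout, carry the floxed Nampt tm1Jtree allele together with Cre driven by the Adiponectin promoter. WT mice are littermates without Cre, labelled wildtype, so the genotypes differ in Cre as well as in Nampt deletion. The mice were 2 to 4 months old and ate chow. Tissue was taken at zeitgeber times (ZT) 6, 10, 18 and 22, counted from lights on, so that ZT6 and ZT10 fall in the light and ZT18 and ZT22 in the dark, and each of the 16 combinations of depot, genotype and time point has 4 libraries. Adiponectin-Cre acts in adipocytes, so the other cells of both tissues, vascular cells among them, keep Nampt in FANKO mice. In whole tissue a lower level of a transcript can come from fewer cells of a type or from less RNA per cell, and these cannot be told apart here. The labels do not tie a library to an animal, and p-values measure the spread between the libraries of a group.

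Stored triglyceride is split in steps. Pnpla2 (adipose triglyceride lipase) removes the first fatty acid, helped by its co-activator Abhd5 and held back by its inhibitor G0s2; Lipe (hormone-sensitive lipase) removes the next, and Mgll (monoglyceride lipase) the last, while Plin1 coats the droplet and holds Abhd5 until the cell is stimulated. Pnpla3 is a close relative of Pnpla2 that also sits on lipid droplets. In the vessel, Lpl (lipoprotein lipase) is made by adipocytes, is carried to the capillary surface by the endothelial protein Gpihbp1 and hydrolyses triglyceride of circulating lipoproteins, and the secreted protein Angptl4, a classical fasting-induced gene, inactivates it. In brown fat both routes deliver fatty acids for heat production.

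Counts were scaled between libraries by TMM and are given as CPM, a gene's share of the scaled library total. A difference between genotypes is a log2 fold change, FANKO minus WT, averaged over the 4 time points, with its SE, from 1 edgeR quasi-likelihood fit to all 64 libraries. The Benjamini-Hochberg adjustment ran over every tested gene, and a gene was called at an FDR of 0.01. Library totals ran from 6117343 to 30544847 counts, and the lowest count of any of the 10 genes in any library was 252. Nampt had a median of 702 CPM in WT BAT and 143 CPM in FANKO BAT, with no overlap of the 16 and 16 libraries, and 149 and 114 CPM in eWAT, where they overlapped (log2 -0.50 ± 0.07, adjusted p = 4.67e-09). By time point Nampt in eWAT was called as lower at ZT18 (-1.11) and ZT22 (-0.59). It was not called at ZT6 (-0.03, adjusted p = 0.879) or ZT10 (-0.25, 0.144). The library of WT replicate 4 at ZT18 stood apart in both depots. Calls that change without it are also given without it, while the ranges of CPM include it.

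Markers of the cells in the tissue moved with genotype. The summed level of 8 adipocyte markers ran from 12090 to 18539 CPM in WT BAT and from 4059 to 7616 CPM in FANKO BAT, and 7 of the 8 were lower in FANKO. Of the 8 macrophage markers all 8 were higher in FANKO BAT (summed 649 to 1664 CPM, against 88.0 to 168 CPM in WT), as were all 8 progenitor markers (summed 1474 to 2552 against 429 to 1212 CPM). Of 8 endothelial markers 6 were lower in FANKO BAT, with sums of 401.2 to 594 CPM against 569 to 776 CPM, and of 7 brown adipocyte markers 3 were lower, with sums of 1322 to 3562 CPM against 4563 to 10402 CPM. In eWAT 5 of the adipocyte markers were lower and 1 higher in FANKO (17246 to 29879 against 26884 to 46086 CPM), 7 of the progenitor markers were lower and 1 higher (1414 to 2166 against 2331 to 3962 CPM), 4 of the macrophage markers were higher (562 to 1012 against 546 to 847 CPM) and 1 endothelial marker was lower (526 to 777 against 603 to 750 CPM). The 7 brown adipocyte markers summed to 40.8 to 87.1 CPM in FANKO eWAT against 10.7 to 30.1 CPM in WT, with 2 higher and 1 lower, and 1 of 8 skeletal muscle markers was higher (24.9 to 114 against 6.22 to 83.9 CPM). Most of the brown sum in FANKO eWAT was Cidea (median 40.6 CPM, 4.13 CPM in WT), while Ucp1 had medians of 0.826 and 0.213 CPM. Car3 weighed heavily in the adipocyte sums, with WT and FANKO medians of 4646 and 244 CPM in BAT and 14589 and 6063 CPM in eWAT. In BAT skeletal muscle markers summed to between 0.528 and 446 CPM with none called, and 5 of 8 epididymis markers were at 0 in every WT BAT library while their sum reached at most 33.6 CPM in eWAT. The marker sums and calls are by TMM scaling only. The part of these marker shifts in the values below was not tested.

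The 10 genes lie on 7 chromosomes of GRCm38, as annotated by GENCODE release M21. Pnpla2 is at chr7:141455198-141460743, Lipe at chr7:25379527-25398710 on the minus strand and Plin1 at chr7:79720218-79732903 on the minus strand. Pnpla3 (chr15:84167837-84187236) and Gpihbp1 (chr15:75596628-75599481) share a chromosome, and the others are Mgll (chr6:88724412-88828360), Abhd5 (chr9:122351608-122381524), G0s2 (chr1:193272161-193273217, minus strand), Lpl (chr8:68880491-68907448) and Angptl4 (chr17:33773750-33781830, minus strand). Antisense genes share 918 exonic bases with Lipe, 950 with Abhd5 and 167 with Mgll, and a noncoding gene on the same strand shares 105 with Pnpla3. The strand setting of the counting is not given in the sources used here, so reads in these stretches may belong to either gene.

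A time-of-day comparison makes the letters upstream of these genes of interest, so the 250 bases before each RefSeq start were searched for the E-box CACGTG, the motif of the CLOCK:BMAL1 class of factors, and for TGACGTCA, the full cAMP response element. Both motifs read the same on both strands, and a copy of one can share its end letters CA or TG with a copy of the other, which none of the matches below does. Windows were found for 7 of the 10 genes, 9 windows in all since Lipe and Mgll have 2 starts each. The E-box was in 2 of them and the cAMP element in 1, against 6.02% and 1.55% of all 32851 windows. The 3 matches are shown in 30 bases of RefSeq sequence on GRCm38.p6, 5′ to 3′ on the strand of the gene, with the motif in capitals.
Pnpla3 (chr15:84167759-84167788, motif starting 46 bases before the RefSeq start): ggggcctcagcTGACGTCAcccgaagacag
Lipe (chr7:25396125-25396154, 155 bases before, inside the first exon of another annotated Lipe transcript): aacagggacgacCACGTGagggggcggagg
Mgll (chr6:88724356-88724385, 44 bases before, inside an exon of the antisense gene Gm26588): gggggccgggcaCACGTGgggccccggcgc
A match is a description of letters and not of a bound site.

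In WT mice Pnpla2, Pnpla3, Lpl and Plin1 had the highest medians in both depots, in a different order. Per kilobase of exon, the median of 16 libraries was highest for Pnpla2 in WT BAT (571 CPM per kb), followed by Pnpla3 (387), Lpl (288), Plin1 (239), G0s2 (236), Lipe (215) and Mgll (208). Angptl4 (42.5), Gpihbp1 (25.8) and Abhd5 (21.8) were lowest. In WT eWAT Lpl came first (633 CPM per kb), then Pnpla2 (284), Plin1 (277), Pnpla3 (264), G0s2 (204), Mgll (200.4), Lipe (199.5), Angptl4 (64.6), Gpihbp1 (28.6) and Abhd5 (18.2). In eWAT the lowest Lpl library (410.03 CPM per kb) was above the median of every other gene. The ranges of neighbours in the order overlapped, apart from the step down to Angptl4: in both depots its highest library (73.6 CPM per kb in BAT, 103 in eWAT) lay below the lowest of the Lipe, Mgll and Plin1 libraries.

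**Figure D1:**
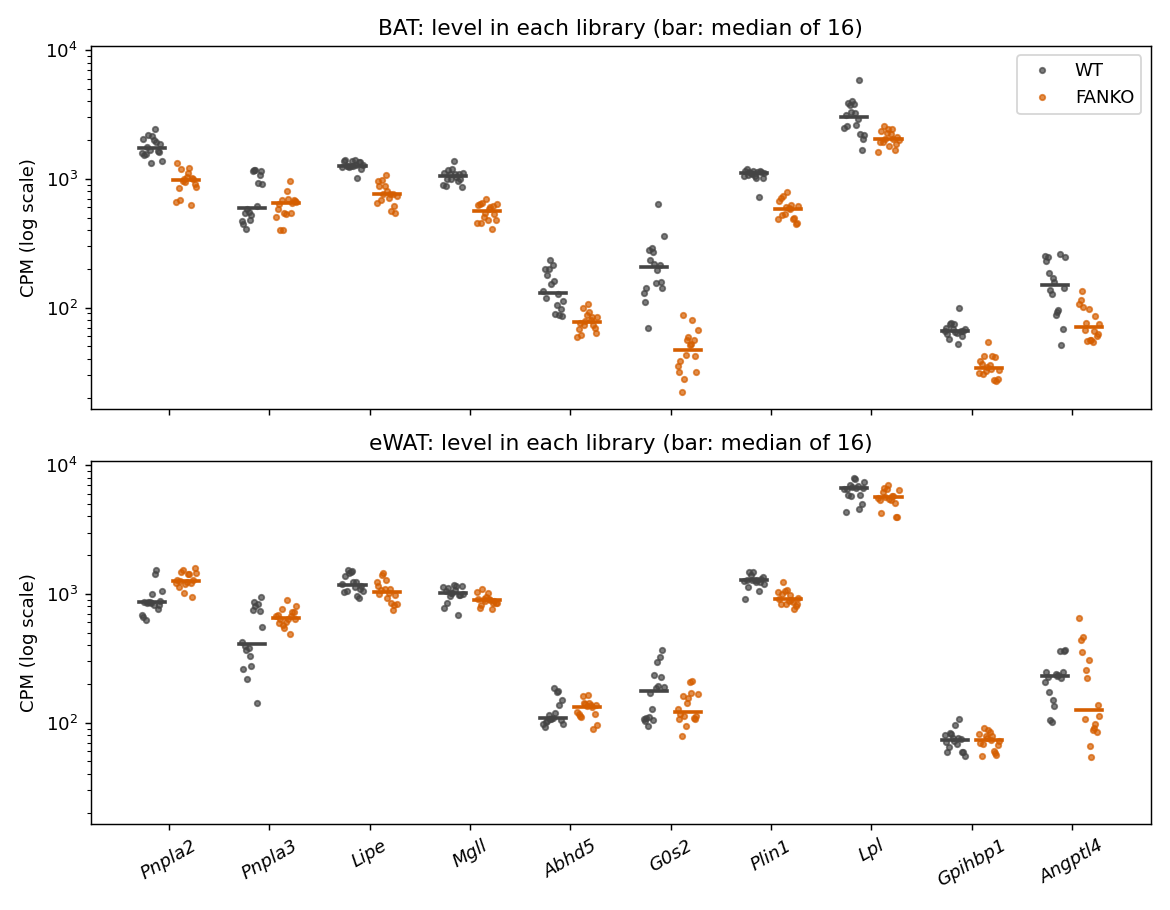
CPM (log scale) of each of the 10 genes in each of the 64 libraries, BAT above and eWAT below, WT in grey and FANKO in orange, with bars at the median of 16 libraries. In BAT the FANKO points lie below the WT points for most genes and do not overlap them for Pnpla2 and Mgll, while in eWAT Pnpla2 and Pnpla3 have the higher median in FANKO.

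Tested between depots in WT, 5 of the 10 were called, 2 higher and 3 lower in BAT, where 73.7% of all genes were called, 32.7% higher and 41.1% lower. Pnpla2 was higher in BAT by a log2 difference of 1.00 ± 0.09 (adjusted p = 2.29e-15) and Pnpla3 by 0.57 ± 0.12 (3.54e-05). Lpl was lower in BAT (-1.06 ± 0.09, 2.56e-16), as were Angptl4 (-0.46 ± 0.15, 0.0056) and Plin1 (-0.23 ± 0.06, 0.000771). Lipe, Mgll, Abhd5, G0s2 and Gpihbp1 were not called, with differences between -0.11 and 0.33. These directions depend on the scaling for 5 genes: scaled by library size alone, which lowers the median difference of all genes by 0.74, Pnpla3 (-0.18), Lipe (-0.66), Mgll (-0.67), Abhd5 (-0.55) and G0s2 (-0.39) came out lower in BAT, those of Pnpla3 and G0s2 without a call.

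In FANKO BAT 9 of the 10 genes were lower than in WT, and none was higher. Of all genes tested 67.0% were called in this comparison, 33.1% higher and 33.9% lower, and the median log2 change was -0.89 over the 10 genes against 0.00 over all genes. The exception was Pnpla3. The TMM factors of the genotypes differed in BAT, with medians of 0.740 in WT and 1.08 in FANKO, as did the share of mitochondrially encoded transcripts, with medians of 24.6% and 14.7% of counts. Scaled by library size alone the median change of all genes rises by 0.58 and 7 of the 10 are called. Lipe (-0.16) and Angptl4 (-0.45) then lose their calls, and Lpl (0.02, not called) and Pnpla3 (0.38, then called as higher) turn sign. A change of scaling moves all genes together, so it cannot show whether the 9 are lower relative to all genes.

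Among the intracellular enzymes, Pnpla2 ran from 1333 to 2443 CPM in WT BAT (median 1724) and from 628 to 1331 CPM in FANKO BAT (median 973). The highest FANKO library was just below the lowest WT library. The change was -0.90 ± 0.09 (adjusted p = 1.4e-13), a 1.86-fold lower level. Mgll ran from 857 to 1383 CPM (median 1058) in WT and from 407 to 700.4 CPM (median 565) in FANKO, also without overlap, and fell by 0.92 on the log2 scale (SE 0.07, adjusted p = 3e-18). Lipe, between them in the chain, ran from 1016 to 1399 CPM (median 1267) in WT and from 545 to 1065 CPM (median 759) in FANKO, where 15 of 16 libraries were below the lowest WT library, with a change of -0.74 ± 0.06 (6.07e-17). The lowest WT value of Lipe came from WT replicate 4 at ZT18. So by TMM scaling each step from triglyceride to glycerol had a transcript at 0.529 to 0.598 times its WT level in BAT. Scaled by library size alone the changes were smaller: -0.32 for Pnpla2, -0.34 for Mgll and -0.16 for Lipe, which lost its call (adjusted p = 0.01001). Pnpla3, by contrast, had medians of 599 CPM in WT and 646 CPM in FANKO with overlapping ranges (410.1 to 1178 and 400 to 961 CPM), and its fitted change of -0.21 ± 0.12 was not called (adjusted p = 0.12). Without WT replicate 4 at ZT18 it was -0.25 and called as lower (adjusted p = 0.00536).

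Transcripts of the proteins that govern Pnpla2 fell in BAT as well, with the lowest fold change for that of its inhibitor. G0s2 ran from 69.7 to 641 CPM in WT BAT (median 206) and from 21.99 to 88.0 CPM in FANKO BAT (median 47.1). At each of the 4 time points all FANKO libraries were below all WT libraries. The change was -2.16 ± 0.16 (adjusted p = 1.65e-18), a 4.47-fold lower level and the largest of the 10. The co-activator Abhd5 ran from 85.3 to 233 CPM (median 130.1) in WT and from 59.2 to 107 CPM (median 77.6) in FANKO and changed by -0.82 ± 0.08 (4.82e-15). Plin1 ran from 717 to 1191 CPM (median 1112) in WT and from 448 to 794 CPM (median 586) in FANKO, with 14 of 16 FANKO libraries below the lowest of WT, and changed by -0.88 ± 0.06 (2.3e-19). The lowest WT value of Plin1 came from WT replicate 4 at ZT18.

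By TMM scaling the vascular side fell in BAT too, least for the lipase itself. Lpl ran from 1689 to 5851 CPM in WT BAT (median 3018) and from 1615 to 2558 CPM in FANKO BAT (median 2040). The ranges overlapped, with 2 FANKO libraries below the lowest of WT, and the change was -0.55 ± 0.09 (adjusted p = 1.73e-07). Gpihbp1 ran from 52.5 to 98.6 CPM (median 65.9) in WT and from 26.7 to 54.2 CPM (median 34.05) in FANKO, a change of -0.94 ± 0.08 (5.58e-17), in a depot where 6 of 8 endothelial markers were also lower. Angptl4 ran from 51.0 to 261 CPM (median 150.5) in WT and from 54.1 to 134 CPM (median 70.7) in FANKO and changed by -1.03 ± 0.15 (3.05e-08), with the FANKO range inside the WT range. At 3 of the 4 time points its FANKO libraries were all below its WT libraries. Scaled by library size alone Lpl (0.02) and Angptl4 (-0.45) were not called. Gpihbp1 kept its call by that scaling (-0.37, adjusted p = 8.96e-05).

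In FANKO eWAT the picture was mixed: 4 of 10 genes were called, 2 higher and 2 lower, where 50.3% of all genes were called, 27.6% higher and 22.8% lower. The median log2 change was -0.18 over the 10 genes and -0.02 over all genes. The genes that rose were the patatin-like lipases. Pnpla2 ran from 629 to 1543 CPM in WT eWAT (median 858) and from 938 to 1598 CPM in FANKO eWAT (median 1265), with a change of 0.53 ± 0.09 (adjusted p = 7.59e-07). Pnpla3 ran from 141 to 948 CPM (median 409) in WT and from 491 to 894 CPM (median 654) in FANKO, with a change of 0.47 ± 0.12 (0.00091). The FANKO libraries of Pnpla3 lay wholly within the WT range, and its WT libraries differed by time of day.

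Plin1 and Lipe were the genes that fell in eWAT. Plin1 ran from 919 to 1492 CPM in WT (median 1286) and from 758 to 1247 CPM in FANKO (median 911), where 8 of 16 libraries were below the lowest WT library, and changed by -0.44 ± 0.06 (adjusted p = 1.89e-08). Lipe fell less, by 0.20 on the log2 scale (SE 0.06, adjusted p = 0.00311), with overlapping ranges of 937 to 1521 CPM in WT (median 1175) and 748 to 1459 CPM in FANKO (median 1042). The other 6 were not called: Mgll (-0.16 ± 0.07, adjusted p = 0.0353), G0s2 (-0.35 ± 0.15, 0.0435), Lpl (-0.20 ± 0.09, 0.051), Angptl4 (-0.32 ± 0.15, 0.0602), Abhd5 (0.07 ± 0.07, 0.434) and Gpihbp1 (-0.03 ± 0.07, 0.752). Without WT replicate 4 at ZT18, Mgll (-0.20, adjusted p = 0.00597) and Lpl (-0.23, 0.00466) were called as lower. Scaled by library size alone, which lowers the median change of all genes by 0.25 in eWAT, 8 of the 10 were called, Pnpla3 (0.23, adjusted p = 0.0738) was not, and Abhd5 (-0.18, not called) turned sign.

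The genotype effect differed between depots for 9 of the 10 genes, all in the same direction, lower in BAT than in eWAT, where 64.3% of all genes were called, 32.2% higher and 32.1% lower in BAT. The difference was largest for G0s2 (-1.81 ± 0.22 on the log2 scale, adjusted p = 1.11e-10) and Pnpla2 (-1.43 ± 0.13, 2.16e-15). Pnpla2 was the gene called in opposite directions in the 2 depots. Lpl was not called (-0.35 ± 0.13, adjusted p = 0.0104). Angptl4 (-0.70 ± 0.22, 0.00318) lost its call when the libraries numbered 3 or 4 were left out of all groups (0.0529 and 0.0354). This comparison depends most on the scaling: by library size alone the median of all genes rises by 0.83 and 5 of the 10 were called. Of these, Lipe (0.29, adjusted p = 0.00101), Plin1 (0.39, 3.11e-05) and Lpl (0.45, 0.00161) were called in the opposite direction, higher in BAT. Pnpla2 and G0s2 stayed lower in BAT, and Pnpla3 (0.15), Mgll (0.06) and Angptl4 (0.12) turned sign without a call.

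**Figure D2:**
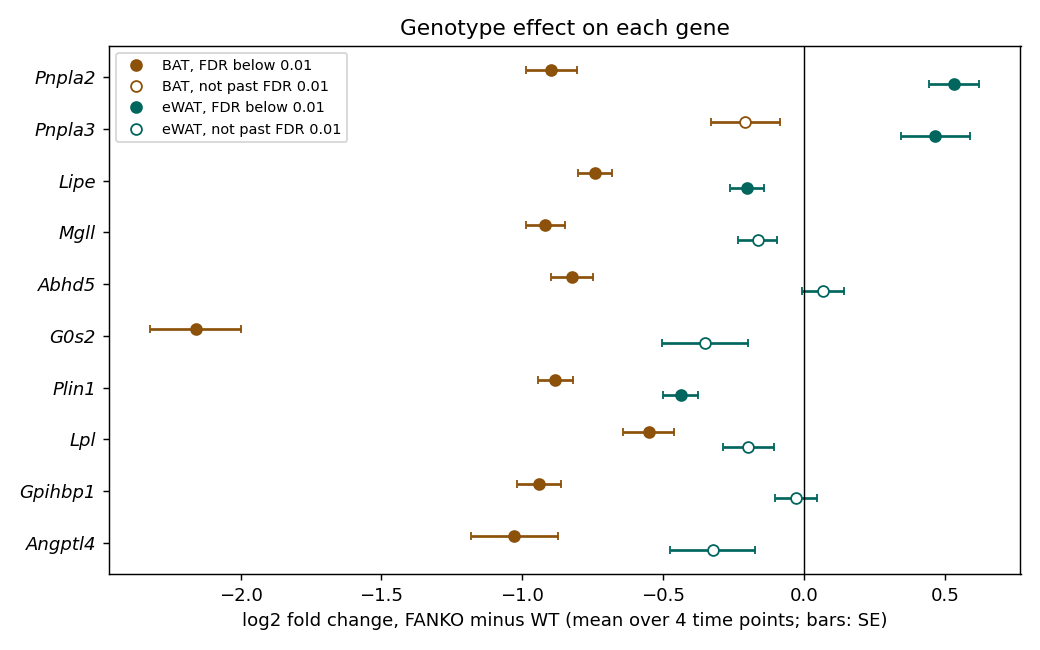
Log2 fold change of each gene, FANKO minus WT, averaged over the 4 time points, with SE, in BAT (brown) and eWAT (green); filled points passed an FDR of 0.01. In BAT 9 of 10 genes are filled and left of 0, with Lpl right of 0 when libraries are scaled by size alone, and in eWAT Pnpla2 and Pnpla3 are filled right of 0 and Lipe and Plin1 left of it.

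Ratios of members within a library do not depend on the scaling. They are log2 ratios of counts, not corrected for gene length, and are compared between groups only. The ratio of the lipase Pnpla2 to its inhibitor G0s2 had a median of 3.34 in WT BAT (1.59 to 4.48) and 4.45 in FANKO BAT (2.96 to 5.40), and 2.58 in WT eWAT (1.23 to 3.04) and 3.23 in FANKO eWAT (2.53 to 3.98). The ratio of the co-activator Abhd5 to G0s2 had medians of -0.60 and 0.80 in WT and FANKO BAT, where every FANKO library was above 0, and -0.29 and -0.03 in eWAT. Lipase and co-activator transcripts were thus more abundant relative to the inhibitor transcript in FANKO libraries of both depots by their medians, with ranges that overlapped. For Abhd5 to G0s2 in eWAT the largest shift was at ZT22, from a WT median of -1.17 to -0.09 in FANKO. At ZT6, ZT10 and ZT18 these medians went from -0.11 to 0.03, from -0.09 to 0.15 and from -0.49 to -0.43. The ratio of Pnpla2 to Lipe moved in eWAT from a median of -0.56 (-0.83 to 0.67) to 0.28 (-0.12 to 0.79), and in BAT from 0.46 (-0.05 to 0.94) to 0.31 (-0.16 to 0.73). The ratio of Lpl to Gpihbp1 rose in median from 5.48 to 5.96 in BAT and went from 6.44 to 6.24 in eWAT.

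**Figure D3:**
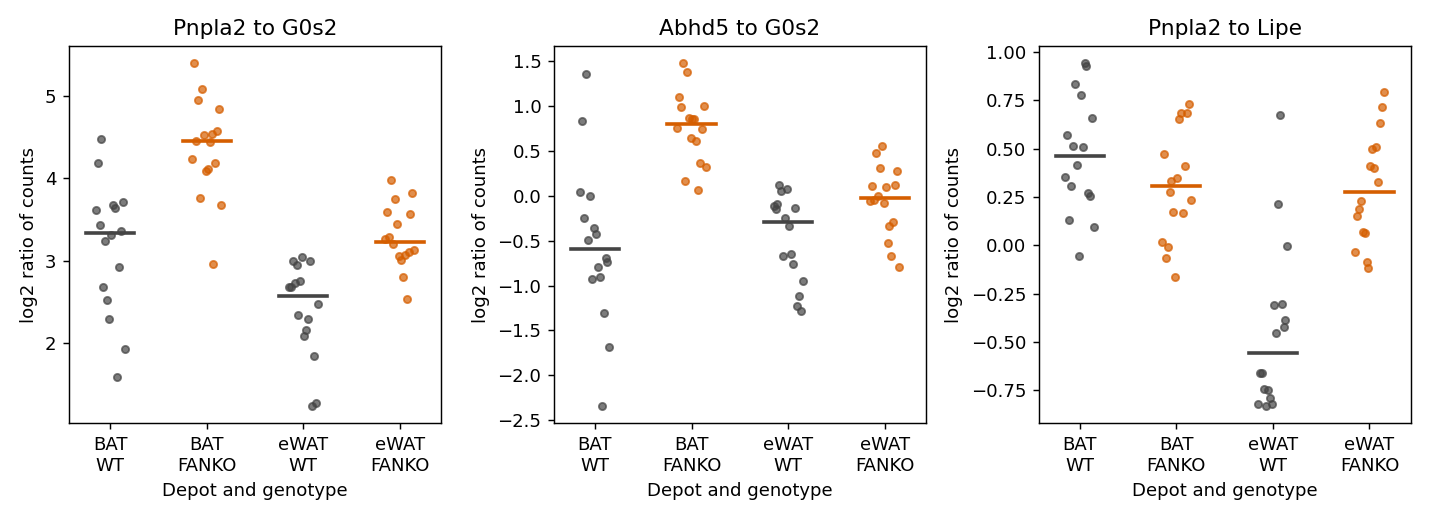
Log2 ratio of counts of Pnpla2 to G0s2, Abhd5 to G0s2 and Pnpla2 to Lipe in each library, by depot and genotype, with bars at the median of 16 libraries. The FANKO medians of the first 2 ratios are above the WT medians in both depots, and the Pnpla2 to Lipe ratio is higher in FANKO in eWAT only by its median (0.28 against -0.56).

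Over the day, 4 of the 10 genes were rhythmic in WT BAT (13.9% of all genes) and 6 in WT eWAT (9.38% of all genes). Rhythm was tested as the joint fit of a 24 h cosine and sine, and amplitude is the log2 span of the 4 time-point means, a coarse reading of a daily curve. The called genes in WT BAT were Abhd5 (amplitude 1.05 ± 0.16, highest at ZT10, adjusted p = 1.81e-07), Pnpla3 (1.11 ± 0.12, ZT22, 3.19e-05), Lpl (0.88 ± 0.11, ZT10, 0.000521) and G0s2 (1.29 ± 0.24, ZT10, 0.00253). The G0s2 call rests on WT replicate 4 at ZT18, at 641 CPM against 155 to 218 CPM in the others of its group, and without it the adjusted p was 0.116. The reverse held for Angptl4, not called with that library (adjusted p = 0.104) and called without it (0.000904), with a mean of 229 ± 30.8 CPM at ZT6 (SD, n = 4) and the other 3 WT libraries at ZT18 between 88.1 and 95.8 CPM.

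In WT eWAT the rhythmic members were Pnpla3 (amplitude 1.35 ± 0.24, highest at ZT22, adjusted p = 1.59e-05), G0s2 (1.37 ± 0.23, ZT22, 0.000596), Abhd5 (0.70 ± 0.15, ZT18, 0.000609), Pnpla2 (0.73 ± 0.24, ZT18, 0.00428), Lipe (0.50 ± 0.06, ZT10, 0.00555) and Angptl4 (1.27 ± 0.23, ZT22, 0.00698). Of these, 5 were highest in the dark and Lipe before lights off. Pnpla2 lost its call without WT replicate 4 at ZT18 (adjusted p = 0.0352). Scaled by library size alone, Abhd5 (adjusted p = 0.0210) and Angptl4 (0.0289) lost theirs. Leaving out the libraries of any 1 replicate number in all groups left between 1 and 4 of the 6 called, so the members near the threshold, Lipe and Angptl4 among them, are uncertain. Mgll, whose first start carries an E-box match as the first start of Lipe does, was not rhythmic in any of the 4 combinations of depot and genotype (adjusted p = 0.458, 0.89, 0.89 and 0.747 in WT BAT, FANKO BAT, WT eWAT and FANKO eWAT). A link between a match and a rhythm was not tested.

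Fewer members were called in FANKO. None of the 10 was called in FANKO BAT by edgeR, where 2.84% of all genes were; 5 of them had an unadjusted p under 0.05, DESeq2 called 1 and limma-voom called 0. Lipe was nearest (adjusted p = 0.0145, and 0.00244 by DESeq2). In FANKO eWAT 2 were called, Lipe (amplitude 0.63 ± 0.12, ZT10, adjusted p = 0.000235) and Angptl4 (2.68 ± 0.25, ZT6, 1.15e-09), where 6.77% of all genes were. The direct test of the difference in rhythm between genotypes called 1 member in each depot, Abhd5 in BAT (2.76% of all genes) and Angptl4 in eWAT (1.15% of all genes).

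Abhd5 lost its light-phase rise in FANKO BAT. In WT BAT its 4 libraries held 134, 198, 120 and 179 CPM at ZT6, 198, 233, 152 and 213 CPM at ZT10, 162, 89.5, 105 and 126 CPM at ZT18 and 87.3, 97.4, 85.3 and 113 CPM at ZT22. In FANKO BAT they held 59.2, 67.8, 76.5 and 61.3 CPM at ZT6, 98.8, 72.8, 78.7 and 87.3 CPM at ZT10, 107, 92.2, 80.4 and 84.4 CPM at ZT18 and 72.6, 69.8, 62.9 and 84.4 CPM at ZT22. The groups were wholly separate at ZT6, ZT10 and ZT22 and overlapped at ZT18. The change was -1.25 ± 0.15 at ZT6 (adjusted p = 6.09e-10) and -1.23 ± 0.15 at ZT10 (8.78e-10), and -0.41 ± 0.15 at both ZT18 (0.0214) and ZT22 (0.0216), where it was not called. The difference in rhythm had an adjusted p of 0.000465, and of 0.0548 and 0.0126 when the libraries numbered 2 or 4 were left out of all groups.

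Angptl4 turned its day around in FANKO eWAT. In WT eWAT its libraries held 208, 246, 228 and 174 CPM at ZT6, 105, 100.4, 149 and 135 CPM at ZT10, 240.2, 229.9, 235 and 362 CPM at ZT18 and 222, 249.7, 358 and 365 CPM at ZT22. In FANKO eWAT they held 656, 441, 357 and 459 CPM at ZT6, 106, 259, 222 and 308 CPM at ZT10, 65.6, 53.9, 87.2 and 90.9 CPM at ZT18 and 97.4, 83.9, 137 and 112 CPM at ZT22. All FANKO libraries were above all WT libraries at ZT6 and below them at ZT18 and ZT22, with overlap at ZT10. The change was 1.16 ± 0.30 at ZT6 (adjusted p = 0.00149), 0.87 ± 0.30 at ZT10 (0.0185, not called), -1.84 ± 0.30 at ZT18 (6.4e-06) and -1.47 ± 0.30 at ZT22 (0.000116). The difference in rhythm had an adjusted p of 1.04e-07. In BAT the gene was highest at ZT6 in both genotypes and no difference in rhythm was called. The mean change of Angptl4 in eWAT is thus an average over opposite changes, and the median log2 ratio of Lpl to Angptl4 counts went from 4.91 to 3.60 at ZT6 and from 4.87 to 6.21 at ZT18 between WT and FANKO eWAT.

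Pnpla3 was flat in FANKO eWAT. Its WT means were 362 ± 70.1, 300.4 ± 69.8, 644 ± 339 and 767 ± 168 CPM at ZT6, ZT10, ZT18 and ZT22 (SD, n = 4), and its FANKO means were 647 ± 38.9, 620 ± 97.1, 674 ± 167 and 724 ± 70.3 CPM. The FANKO libraries were all above the WT libraries at ZT6 (0.84 ± 0.25, adjusted p = 0.00713) and ZT10 (1.04 ± 0.26, 0.000965), and overlapped them in the dark, where no change was called. The difference in rhythm was not called (adjusted p = 0.0407). WT replicate 4 at ZT18 held 141 CPM against 751 to 871 CPM in the others of its group, and without it the adjusted p was 3.92e-05 in eWAT and 0.00905 in BAT, where the FANKO means (535, 542, 753 and 668 CPM) also rose less into the dark than the WT means (469, 534, 1024 and 1015 CPM).

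**Figure D4:**
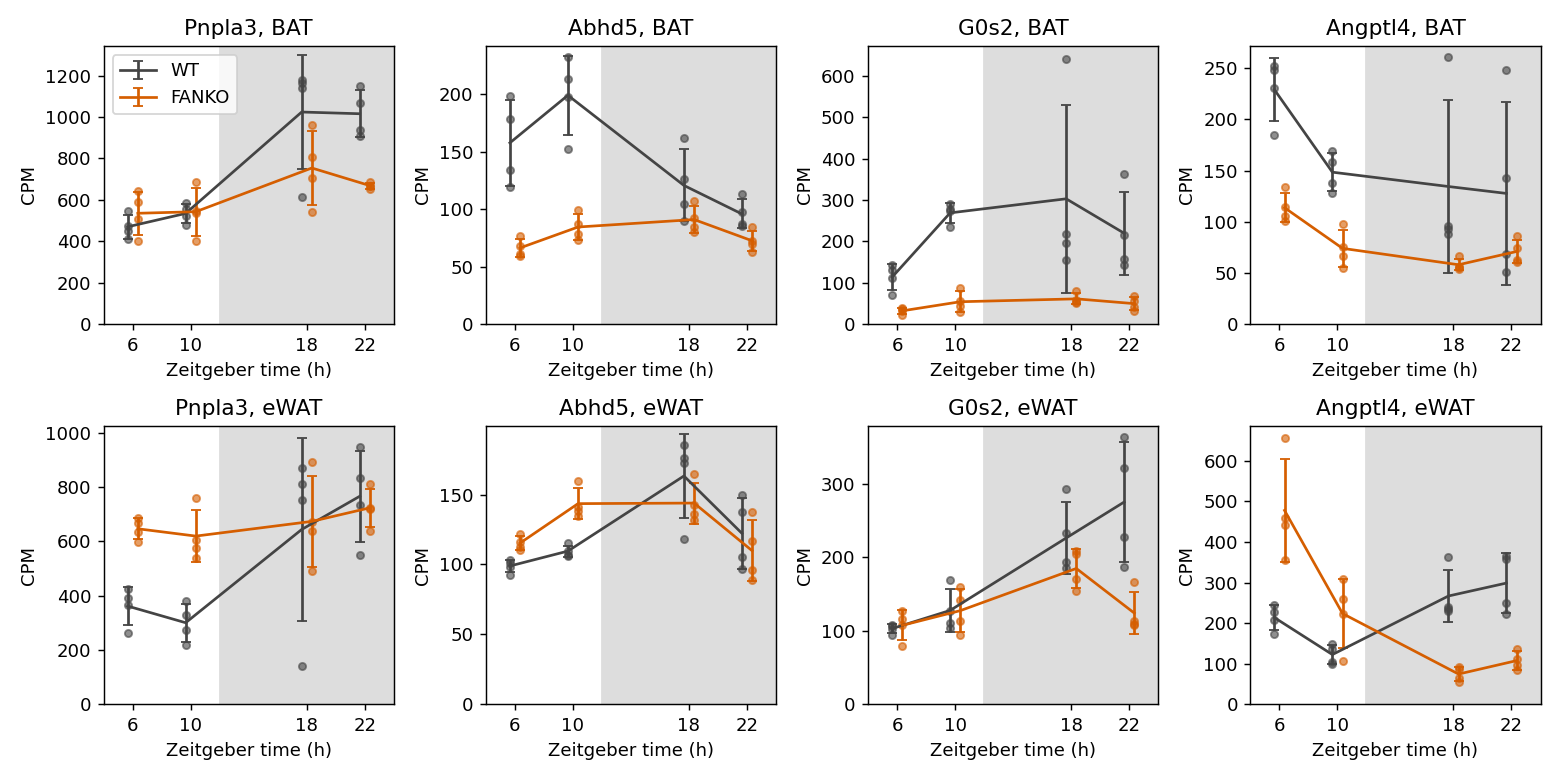
CPM of Pnpla3, Abhd5, G0s2 and Angptl4 against zeitgeber time (h; grey, dark phase) in BAT (above) and eWAT (below); points are libraries, lines join the means of 4 and bars are SD, with WT in grey and FANKO in orange. Abhd5 in BAT falls from a ZT10 mean of 199 CPM in WT while FANKO stays between 66.2 and 90.9 CPM, and the Angptl4 lines of eWAT cross between ZT10 and ZT18.

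By time point, the members called as lower in BAT were 9 at ZT6, 9 at ZT10, 8 at ZT18 and 6 at ZT22, with none called as higher. Of all genes 48.2%, 45.7%, 44.0% and 45.3% were called at these times, 24.4%, 23.3%, 21.5% and 22.6% as higher and 23.9%, 22.4%, 22.5% and 22.7% as lower. Pnpla2, Lipe, Mgll, G0s2, Plin1 and Gpihbp1 were called at all 4. Lpl had WT means of 3015, 3744, 3664 and 2044 CPM and FANKO means of 1959, 2327, 2132 and 1917 CPM, so that the genotypes met at ZT22, where the change was -0.09 ± 0.18 (adjusted p = 0.688). At ZT18 the calls of Lpl (-0.78, adjusted p = 0.000178) and Angptl4 (-1.21, 0.000589) rest on WT replicate 4, with 5851 and 261 CPM, and without it the changes were -0.46 (0.0102) and -0.67 (0.0434). Without that library Pnpla3 was called as lower at ZT18 (-0.63, adjusted p = 0.00257) and ZT22 (-0.60, 0.00167) and Angptl4 at ZT22 (-0.86, 0.00508), and with these gains and losses 7 genes were called at ZT18 and 8 at ZT22. Scaled by library size alone, 3, 2, 3 and 3 of the 10 were called as lower in BAT at the 4 time points, and Pnpla3 was called as higher at ZT6 (0.74, adjusted p = 0.00532). By that scaling Lipe at ZT10 (0.10), Abhd5 at ZT18 (0.19) and ZT22 (0.20), Lpl at ZT22 (0.50) and Pnpla3 at ZT18 (0.16) and ZT22 (0.013) turned sign, none of them called.

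In eWAT 3 were higher at ZT6 (27.0% of all genes called, 16.9% higher and 10.1% lower), 2 were higher and 1 lower at ZT10 (24.5%, 16% and 8.46%), 2 were lower at ZT18 (13.6%, 8.54% and 5.10%), and 1 was higher and 3 lower at ZT22 (20.6%, 12.6% and 8.02%). Pnpla2 was higher at ZT6 (0.79 ± 0.18, adjusted p = 0.000441), ZT10 (0.60 ± 0.18, 0.00714) and ZT22 (0.59 ± 0.18, 0.0092), and at ZT18, the WT peak, its change was 0.15 ± 0.18 (0.591). Plin1 was lower at ZT10, ZT18 and ZT22, by -0.43, -0.42 and -0.61. G0s2 was called at ZT22 alone, where its WT libraries held 188 to 365 CPM and its FANKO libraries 108 to 167 CPM without overlap (-1.15 ± 0.30, adjusted p = 0.00234). Lipe, Mgll, Abhd5, Lpl and Gpihbp1 were called at none of the 4, although DESeq2 called Lipe as lower at ZT22 (adjusted p = 0.00622) and did not call Pnpla2 there (0.0119). Scaled by library size alone, Lipe was called as lower at ZT10, ZT18 and ZT22, Mgll at ZT22 and Plin1 at all 4, and of the increases Pnpla2 kept its call at ZT6 (adjusted p = 0.0061) and lost it at ZT10 and ZT22, as did Pnpla3 at ZT6 and ZT10 and Angptl4 at ZT6 (0.0187). By that scaling 6 uncalled changes in eWAT turned sign, between -0.22 and -0.035. Leaving out 1 replicate number left 1 to 3 calls at ZT6, 0 to 2 at ZT10, 1 at ZT18 and 2 to 3 at ZT22.

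**Figure D5:**
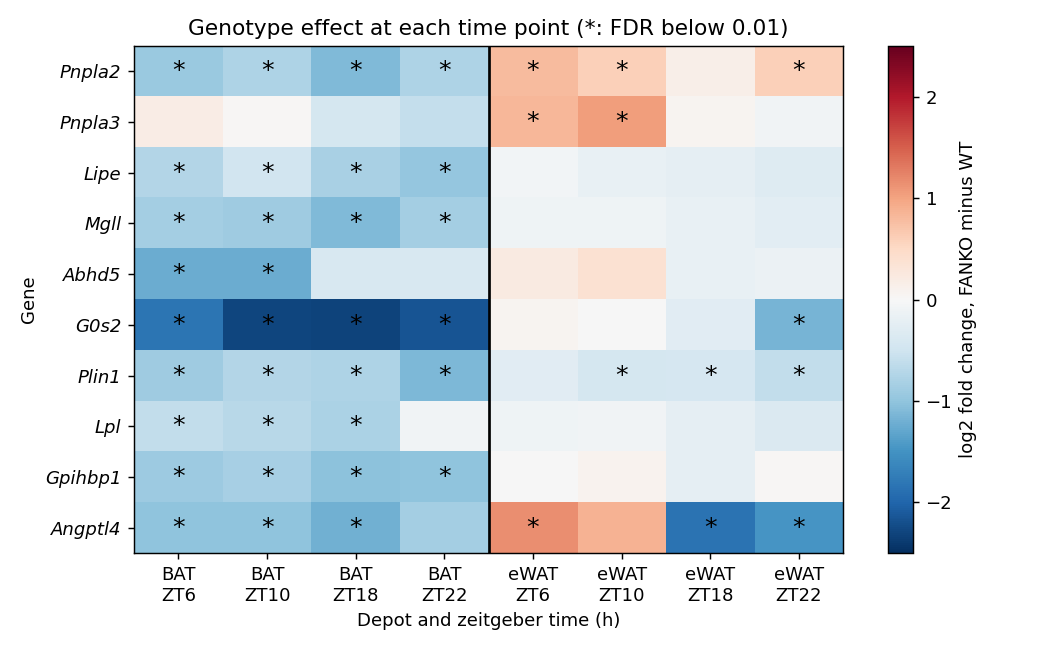
Log2 fold change, FANKO minus WT, of each gene at each time point in BAT and eWAT (colour; asterisks mark an FDR below 0.01). The BAT columns are blue for all genes but Pnpla3, while scaled by library size alone Lipe at ZT10, Abhd5 at ZT18 and ZT22, Lpl at ZT22 and Pnpla3 at ZT18 and ZT22 turn sign, and Angptl4 in eWAT goes from 1.16 at ZT6 to -1.84 at ZT18.

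The other genes of lipolysis and lipoprotein handling were taken from a list of 55, of which 54 were tested. In BAT 34 were lower in FANKO and 12 higher, with a median log2 change of -0.64, where 33.9% of all genes were lower and 33.1% higher. In eWAT 13 were lower and 27 higher, with a median of 0.14, where 22.8% of all genes were lower and 27.6% higher. The counts of this list are by TMM scaling only. Scaling by library size alone moves all genes up in BAT and down in eWAT. The lipolytic signalling group holds genes that promote lipolysis and genes that restrain it, Pde3b and Adora1 among the latter. Of its 15 genes 12 were lower and 1 higher in BAT, and 6 were lower and 4 higher in eWAT. Of 10 tested lipid droplet genes 6 were lower and 1 higher in BAT, and 1 lower and 7 higher in eWAT. Of 7 genes of fatty acid and glycerol transport 5 were lower and 1 higher in BAT, and 6 higher in eWAT. Of 12 genes that handle Lpl or its lipoprotein remnants 6 were lower and 4 higher in BAT and 5 and 4 in eWAT, and the 10 other hydrolases split 5 to 5 in BAT and 1 lower to 6 higher in eWAT.

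The largest decreases of that list in BAT were those of the carboxylesterases Ces1f, from 58.5 to 156 CPM in WT to 8.67 to 18.7 CPM in FANKO (-2.87 ± 0.13), and Ces1d, from 1329 to 3001 CPM to 282 to 569 CPM (-2.12 ± 0.10), and of the lipoprotein receptor Vldlr, from 297 to 660 CPM to 67.1 to 119 CPM (-2.09 ± 0.09), all without overlap. The largest increases were Aadac, Fabp5 and Angptl8. Aadac, an esterase, had 1 count in all 16 WT BAT libraries together and 328 in FANKO, a ratio of 241 with a 95% exact counting interval of 42.9 to 9546. The fatty acid binding protein Fabp5 went from 26.6 to 94.6 CPM to 254 to 438 CPM (2.36 ± 0.13), and Angptl8, a secreted regulator of Lpl, from 21.5 to 206 CPM to 87.6 to 367 CPM with overlap (1.49 ± 0.24).

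In eWAT the largest increases were Cidea, a lipid droplet fusion protein typical of brown fat (2.10 to 10.8 CPM in WT, 25.5 to 67.8 CPM in FANKO, 3.03 ± 0.16), the droplet coat protein Plin2 (131 to 688 CPM, 998 to 2309 CPM, 2.43 ± 0.12) and Fabp5 (41.3 to 119 CPM, 207 to 453 CPM, 2.29 ± 0.13), all without overlap. The largest decreases were the natriuretic peptide clearance receptor Npr3 (353 to 1994 CPM, 415 to 1359 CPM, -0.95 ± 0.14), Plin4 (1893 to 4170 CPM, 1288 to 2589 CPM, -0.70 ± 0.07) and the receptor Adrb3 (284 to 440.4 CPM, 137 to 341 CPM, -0.70 ± 0.09), each with overlapping ranges.

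Among the 10 genes, Pearson's r over the 16 group means was highest, at 0.93, between Mgll and each of Gpihbp1 and Plin1. It was 0.90 between G0s2 and Mgll, between Lipe and Plin1 and between Gpihbp1 and Plin1. The lowest was -0.35, between Pnpla3 and Lpl. Of 12827 genes with a mean log2 CPM of at least 1, those most like Pnpla2 over the 16 means were Nadk (r = 0.98), Bckdhb (0.97) and Dgcr6 (0.97), and those most like Lpl were Myo1c (0.98), Phkg1 (0.98) and Cyp2e1 (0.97). Those most like Pnpla3 were Opa3 (0.95), Rpia (0.94) and Mir6392 (0.93), the last of which lies within the span of Pnpla3 on the same strand, so that reads of the host gene may be counted for it. The 16 points share depot and genotype, and the values are descriptions.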

How the data were processed

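The authors deposited whole-number counts per gene, not normalized, for 64 libraries prepared from ribosome-depleted, stranded total RNA and sequenced as paired-end reads. The submitters' processing notes name STAR 2.5.3a, GRCm38.p5 and featureCounts 1.5.3, and no columns of other samples were present. Genes were kept by filterByExpr on the 16 groups (minimum count 10, minimum total 15), which left 20249, and libraries were scaled by TMM. For each depot and genotype a mean and the 24 h cosine and sine terms (12 coefficients in all) were fitted by edgeR 4.0.16 in R 4.3.3, and a second fit with 16 group means gave the contrasts at single time points; the threshold was an FDR of 0.01. Log2 CPM used a prior count of 2. DESeq2 1.42.0 and limma 3.58.1 were alternatives. Scripts were tested on simulated data. Chi-square tests of replicate counts found no library deposited more than once within a group, and libraries of different groups were not compared. The genes and gene lists were chosen with earlier results of these data known. All 10 genes were named in each comparison. From the pathway list the 3 largest called increases and decreases per depot were named, and the 3 genes most like Pnpla2, Pnpla3 and Lpl. Totals of 6117343 to 30544847 counts per library set the precision, and the counting interval covers counting error only. Figures used matplotlib 3.10.9.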

Additional observations from a re-analysis of the deposited data

Results flagged for a closer look

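The genotype effect differed between the depots, by a test of that difference over all genes (edgeR, FDR 0.01), for Pnpla2 (log2 difference -1.43, BAT minus eWAT), Pnpla3 (-0.68), Lipe (-0.54), Mgll (-0.75), Abhd5 (-0.89), G0s2 (-1.81), Plin1 (-0.44), Gpihbp1 (-0.91) and Angptl4 (-0.70). The rhythm differed between genotypes for Abhd5 in BAT (adjusted p = 0.000465) and for Angptl4 in eWAT (adjusted p = 1.04e-07). 

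Of 160 groups of 4 libraries, 12 held a library far from the other 3 by Dixon's 95% criterion, where chance gives about 1 in 20 groups, or 8. WT replicate 4 at ZT18 supplied 5 of them: Pnpla3 at 613 CPM in BAT and 141 CPM in eWAT, both low, and G0s2 at 641 CPM and Angptl4 at 261 CPM in BAT and 362 CPM in eWAT, all high. The others were high values of Pnpla2 in WT BAT at ZT6 (2027 CPM) and in FANKO BAT at ZT10 (1191 CPM), Lipe in WT BAT at ZT10 (1384 CPM), Mgll in WT eWAT at ZT22 (1147 CPM), G0s2 in FANKO eWAT at ZT22 (167 CPM) and Angptl4 in FANKO BAT at ZT18 (66.0 CPM), and a low value of Gpihbp1 in WT BAT at ZT10 (67.9 CPM).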

How the results depend on the processing

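Scaled by library size alone, 26 fitted log2 values changed sign, 13 of them called under either scaling: the genotype change in BAT of Pnpla3 (0.38) and Lpl (0.018), the depot difference of Pnpla3 (0.15), Lipe (0.29), Mgll (0.059), Plin1 (0.39), Lpl (0.45) and Angptl4 (0.12), the BAT minus eWAT difference in WT of Pnpla3 (-0.18), Lipe (-0.66), Mgll (-0.67) and Abhd5 (-0.55), and Lipe in BAT at ZT10 (0.10). The 13 called under neither were G0s2 between depots in WT (-0.39), Abhd5 for genotype in eWAT (-0.18), in BAT Pnpla3 and Abhd5 at ZT18 (0.16 and 0.19) and Pnpla3, Abhd5 and Lpl at ZT22 (0.013, 0.20 and 0.50), and in eWAT Abhd5 and G0s2 at ZT6 (-0.050 and -0.21), Gpihbp1 at ZT10 (-0.22), Pnpla2 and Pnpla3 at ZT18 (-0.035 and -0.095) and Gpihbp1 at ZT22 (-0.19). The counts of called genes then were 8 for genotype in eWAT, 5 for the depot difference, 8 between depots in WT, 1 rhythmic in FANKO BAT, and 4, 2, 3 and 3 in BAT at ZT6, ZT10, ZT18 and ZT22. In WT eWAT Abhd5 (adjusted p = 0.0210) and Angptl4 (0.0289) lost their rhythm calls. That scaling moved the share of higher calls among all genes from 49.4% to 84.9% in BAT and from 54.8% to 21.8% in eWAT, so directions are relative to the TMM baseline. The cause was not tested.

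Of the other alternatives, 1 gene was rhythmic in FANKO BAT, against 0, with at least 10 counts in 32 samples, with DESeq2, at an FDR of 0.05 and without WT replicate 4 at ZT18, a setting chosen after the data were seen. Without that library 2 genes had a rhythm difference in BAT and 2 in eWAT, 5 were rhythmic in WT eWAT, and 4 and 2 were called in eWAT at ZT10 and ZT18. At an FDR of 0.05, 2 had a rhythm difference in eWAT and 5 were called in eWAT at ZT10. Without the filter 1 was called in eWAT at ZT18. By RLE factors the Angptl4 depot difference was not called (adjusted p = 0.0117). Over all alternatives its adjusted p ran from 0.00229 to 0.631. Sign changes of values called under neither setting were Gpihbp1 in eWAT at ZT22 by RLE factors (-0.024), without the filter (-0.0042), with 10 counts in 32 samples (-0.019) and by DESeq2 (-0.023), G0s2 in eWAT at ZT6 with 10 counts in 32 samples (-0.0099), Pnpla3 in BAT at ZT10 by limma-voom (-0.0063), and, without WT replicate 4 at ZT18, in eWAT Gpihbp1 on average (0.0057) and at ZT6 (0.00016) and Pnpla3 at ZT18 (-0.27).

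Leaving out 1 replicate number from all groups left 9 calls for genotype in BAT, 2 to 6 in eWAT, 8 to 9 for the depot difference and 3 to 5 between depots in WT. Rhythmic genes numbered 3 to 4 in WT BAT, 0 in FANKO BAT, 1 to 4 in WT eWAT and 1 to 2 in FANKO eWAT, and rhythm differences 0 to 1 in BAT and 1 to 2 in eWAT. By time point the counts were 7 to 8, 6 to 9, 6 to 9 and 5 to 7 in BAT and 1 to 3, 0 to 2, 1 and 2 to 3 in eWAT. Uncalled changes whose range crossed 0 were, in BAT, Pnpla3 at ZT10 (-0.064 to 0.16) and Lpl at ZT22 (-0.16 to 0.013), and, in eWAT, Lipe (-0.13 to 0.029), G0s2 (-0.0099 to 0.15) and Gpihbp1 (-0.024 to 0.0013) at ZT6, G0s2 at ZT10 (-0.20 to 0.21), Pnpla2 (-0.031 to 0.34) and Pnpla3 (-0.26 to 0.27) at ZT18, and Pnpla3 (-0.27 to 0.046) and Gpihbp1 (-0.089 to 0.17) at ZT22. The mean change of Gpihbp1 in eWAT ran from -0.098 to -0.0038.

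With the replicate number as a replicate block, 2 genes were called between depots in WT, where Pnpla3 (adjusted p = 0.0134), Plin1 (0.0109) and Angptl4 (0.0494) lost their calls and Mgll turned sign uncalled (-0.031). The block was fitted within each depot, so that contrast is the depot difference at replicate number 1 and not the average difference of the main fit. In eWAT at ZT18 1 gene was called, where Plin1 lost its call (0.0127). Lpl gained a depot difference (0.00744). No label says whether same-numbered libraries share an animal, and the data do not settle it: their deviations correlated between BAT and eWAT from -0.21 to 0.45 (18 of 32 pairs over 0.1, 19 best with their own number) and between genotypes from -0.12 to 0.33 (17 of 32, 20 best with their own). With 4 libraries per group and 4 time points, small changes at 1 time point and the shape of a rhythm are poorly resolved.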
